A study of Mus musculus with 23 samples.

Results

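Blockade of the γδ T-cell receptor (TCR) was examined in mammary tumors of IL-38 knockout (KO) mice, by setting 4 tumors from mice given an anti-γδ TCR antibody against 4 tumors from mice given IgG. These 8 of the 23 tumors of the series were taken by their labels alone. All 8 carried the polyoma virus middle T oncoprotein (PyMT) transgene, which causes mammary carcinomas, on a C57BL/6 background, and all lacked IL-38, so that the IgG group (called control below) was itself a knockout group and no wildtype tumor given the antibody was analysed here. Both antibodies were injected weekly over 5 weeks, and the mice were female according to the methods of the study. The labels give neither an age nor the promoter that drives the transgene. By the study's account the antibody blocks the receptor. By flow cytometry, the study also reports fewer γδ T cells in treated tumors and, in knockout tumors, fewer CD8+ T cells. It further reports lower Xcl1 expression in treated knockout tumors. Tumors were dissociated before RNA extraction, and QuantSeq libraries, which read 1 short tag near the 3′ end of each transcript, were sequenced from bulk RNA. In such bulk RNA, fewer cells of a type and less RNA per cell cannot be told apart.

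γδ T cells are innate-like lymphocytes whose receptor is built from γ and δ chains and which release IL-17 or interferon-γ. IL-38, encoded by Il1f10, is a member of the IL-1 family that dampens inflammatory signaling, and γδ T cells are among its known targets. In tumors, γδ T cells can act on neutrophils, macrophages, dendritic cells and CD8+ T cells. The gene lists below follow those cells, the epithelium from which the tumor grew, and the stress and growth programs of the tissue. These lists were written with earlier results of these data known. Il1f10 had 0 reads in each of the 8 tumors and also in the other 15 of the series. With 0 reads everywhere, it did not check the knockout label at this depth.

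The libraries did not all look alike, and this touches every result. The blockade tumors held the last places of the sample sheet, numbers 20 to 23, right after the control tumors at 16 to 19. A sheet number is not a known date or run. Control tumor 4, at number 19, shared the technical profile of the blockade tumors. Control tumors 1 to 3 had 12620223 to 15879164 reads, control tumor 4 had 8620899, and the blockade tumors had 6273049 to 8794202. The share of reads on Gm42418, a locus that overlaps ribosomal RNA, was 2.82% to 4.46% in control tumors 1 to 3, 11.3% in control tumor 4 and 11.6% to 20.1% in the blockade tumors. Processed pseudogenes, which are genomic copies of spliced transcripts, took 0.180% to 0.202%, 1.50% and 1.34% to 2.03% of the reads in the same order. The 5 libraries at numbers 19 to 23 are called the late libraries below, after their place in the sheet. Treatment cannot be told apart from place in the sheet other than through control tumor 4. Comparisons were therefore made in 3 ways, namely over all 8 tumors, without control tumor 4, and with a term for the late libraries. That term leaves the 4 blockade tumors against control tumor 4 alone, with the spread taken from the repeated tumors, so a single tumor stands for the controls and is assumed to vary like the others. Where 3 fold changes or medians follow each other with no other description, they are given in this order.

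**Figure D1:**
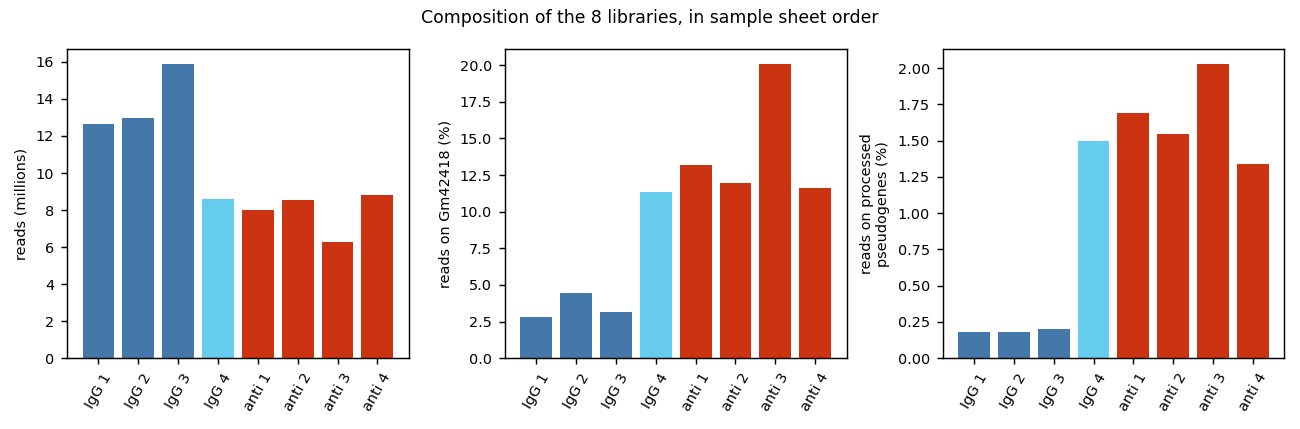
Bars show, for each of the 8 tumors in sample sheet order, the total reads (left), the percent of reads on Gm42418 (middle) and the percent on processed pseudogenes (right). Dark blue is control (IgG) tumors 1 to 3, light blue is control tumor 4 and red is the blockade (anti) tumors. Control tumor 4, with 1.50% of reads on processed pseudogenes, sits with the blockade tumors in the right panel.

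Over all 8 tumors no gene passed the test. Of 16481 genes with a mean value of 5 or more, 0 (0%) had an adjusted p under 0.05 in limma on log2(value + 1), and edgeR on the recovered reads also called 0. Without adjustment, 2086 genes (12.7%) were higher on blockade and 1484 (9.0%) were lower at p under 0.05. DESeq2 on the recovered reads called 1033 genes, 424 higher and 609 lower. The values of the groups did not overlap for 753 genes (4.57%) that were higher on blockade and for 820 (4.98%) that were lower. Without control tumor 4, limma called 2362 genes, of which 1565 rose (9.50%) and 797 fell (4.84%). At those genes control tumor 4 itself lay nearer to the mean of the blockade tumors than to that of the other controls in 1455 of the 1565 and in 597 of the 797, against 9282 of all 16481. With the late-library term 0 genes were called, and at unadjusted p under 0.05 there were 703 higher (4.27%) and 573 lower (3.48%). The balance of higher and lower genes moved with the scaling. Over the 8 tumors, the unadjusted split was 1881 higher and 1749 lower after TMM rescaling, 1670 and 1947 after quantile normalization, and 1348 and 1730 in edgeR. Below, a value is a normalised read count, a fold change is the difference of mean log2(value + 1), blockade minus control, and ± is its standard error from limma. An adjusted p is limma's, over all 16481 genes, and an unadjusted p is that of the same limma fit. A gene is said to have risen or fallen only where limma called it without control tumor 4. Genes listed only because of such a call were picked with their values in view. Without control tumor 4, treatment coincided with place in the sheet. Risen and fallen therefore name a difference between these tumors, not an effect of the antibody. Against control tumor 4 alone, 1132 of the 1565 and 595 of the 797 kept their sign, as did 10542 of all 16481. Counts within each gene list are to be read against the shares of all genes given here.

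The 10 protein-coding genes that were higher on blockade with the smallest p-values (mean value of at least 20) were Nenf, Spats2l, Foxi1, Ccm2, Tmc4, Fosb, Mme, Cltb, Neurl4 and Txlnb. Each had an adjusted p of 0.0657 over the 8 tumors, each had groups that did not overlap, and each rose without control tumor 4. Foxi1 encodes a forkhead factor of ion-transporting epithelial cells. Its value was 871, 684, 809 and 856 in control tumors 1 to 4 and 1708, 1246, 1247 and 1376 in blockade tumors 1 to 4. The 4 controls lay together here, control tumor 4 included. Its fold change was 0.79 ± 0.15 over the 8 tumors, 0.82 ± 0.16 (adjusted p = 0.00473) without control tumor 4 and 0.69 against control tumor 4 alone (unadjusted p = 0.0133). Mme encodes neprilysin (CD10), a peptidase of the myoepithelial surface. The values of Mme were 327, 199.96, 153 and 378 in control tumors 1 to 4 and 607, 967, 912 and 551 in blockade tumors 1 to 4. Among controls, tumor 4 was the highest. It differed by 1.57 ± 0.30, and 1.77 ± 0.28 (adjusted p = 0.00124) without that tumor and 0.96 against it alone. Nenf encodes a secreted neurotrophic factor and had 607, 552, 546 and 826 in control tumors 1 to 4 and 1145, 1267, 1344 and 1126 in blockade tumors 1 to 4. Spats2l, which encodes a protein linked to stress granules, had 155, 148, 120.2 and 350.1 in control tumors 1 to 4 and 578, 553, 738 and 472 in blockade tumors 1 to 4. In both genes control tumor 4 lay above the other controls and below every blockade tumor. Spats2l had fold changes of 1.71 ± 0.30, 2.03 ± 0.19 and 0.72. For Nenf these were 0.96 ± 0.16, 1.10 ± 0.13 and 0.56. Ccm2, which encodes a scaffold of endothelial junctions, differed by 1.26 ± 0.24, 1.48 ± 0.18 and 0.60. Cltb, a clathrin light chain gene, differed by 1.04 ± 0.20, 1.24 ± 0.15 and 0.43. Neurl4 had 1.08 ± 0.21, 1.29 ± 0.16 and 0.46, Tmc4 had 1.01 ± 0.19, 1.15 ± 0.17 and 0.61 and Txlnb had 2.28 ± 0.45, 2.67 ± 0.37 and 1.10. Fosb is described with its family. Against control tumor 4 alone, the unadjusted p of Cltb, Neurl4 and Txlnb was 0.0692, 0.0816 and 0.0703.

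The 10 protein-coding genes that were lower with the smallest p-values were Flvcr1, Trim59, Bcl2a1b, B430306N03Rik, Wfdc17, mt-Nd3, Rcc1, Slc37a2, Fzd5 and C5ar1. Each again had an adjusted p of 0.0657 over the 8 tumors and fell without control tumor 4. Flvcr1 encodes a heme and choline transporter. The values of Flvcr1 were 344, 309, 381 and 267 in control tumors 1 to 4 and 143, 161, 141 and 158 in blockade tumors 1 to 4. All blockade tumors lay below all controls. Its fold change was -1.09 ± 0.16, -1.18 ± 0.16 (adjusted p = 0.000481) without control tumor 4, and -0.82 against that tumor alone (unadjusted p = 0.00583). Rcc1, the exchange factor that charges Ran at chromatin, had 436, 421, 472 and 472 in control tumors 1 to 4 and 255, 229, 297 and 228 in blockade tumors 1 to 4. Trim59, a ubiquitin ligase gene, had 328, 392, 338 and 287 in control tumors 1 to 4 and 179, 111, 145 and 158 in blockade tumors 1 to 4. For both, control tumor 4 stood within or close to the other controls. Rcc1 differed by -0.84 ± 0.14, -0.82 ± 0.16 and -0.91, and Trim59 by -1.19 ± 0.18, -1.26 ± 0.20 and -0.97. Fzd5, a Wnt receptor gene, had a fold change of -1.16 ± 0.20, and of -1.13 ± 0.22 (adjusted p = 0.00487) without control tumor 4 and -1.27 against that tumor alone. mt-Nd3, a mitochondrially encoded subunit of complex I, had 126, 43, 140 and 109 in control tumors 1 to 4 and 13.1, 2.29, 10.9 and 14.3 in blockade tumors 1 to 4. As CPM, which are reads relative to the library total, it ranged from 0 to 12.1 in the other 15 tumors and from 0.234 to 1.48 in the blockade tumors. These ranges overlap. C5ar1, the receptor for complement C5a on myeloid cells, had 83.6, 65.5, 105 and 55.2 in control tumors 1 to 4 and 17, 22.9, 21.7 and 28.6 in blockade tumors 1 to 4. Bcl2a1b, B430306N03Rik, Wfdc17 and Slc37a2 are expressed in myeloid cells. Bcl2a1b differed by -3.41 ± 0.54, -3.87 ± 0.45 and -2.01, and B430306N03Rik by -3.25 ± 0.52, -3.79 ± 0.34 and -1.63. Wfdc17 differed by -4.22 ± 0.70, -5.05 ± 0.32 and -1.72, and Slc37a2 by -2.21 ± 0.38, -2.58 ± 0.28 and -1.09. In all of these, control tumor 4 lay far below the other controls and above every blockade tumor. Bcl2a1b shares most of its sequence with other Bcl2a1 copies, so its reads may be split among them.

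Most macrophage genes were lower in the blockade tumors than in the controls, and some of them were far lower in control tumor 4 as well. Macrophages are the most abundant leukocytes of many mammary carcinomas, and they are read here by a list of 22 genes. Of these, 17 were lower and 5 higher. At unadjusted p under 0.05, 11 were lower and 1 was higher, against 9.0% and 12.7% of all genes. With control tumor 4 left out, 10 fell, and Aif1 (an actin-binding protein gene of macrophages) rose. Of all genes, 4.84% fell and 9.50% rose. The median fold change of the list was -0.61, against 0.022 for all genes. Without control tumor 4 it was -0.78, and against control tumor 4 alone it was -0.16. Lyz2 encodes lysozyme. The values of Lyz2 were 51412, 52082, 78279 and 4699 in control tumors 1 to 4 and 906, 809, 2316 and 3598 in blockade tumors 1 to 4. Gpnmb encodes a glycoprotein of lipid-loaded macrophages. The values of Gpnmb were 23451, 23672, 31394 and 1119.8 in control tumors 1 to 4 and 267, 320.5, 369 and 1039.8 in blockade tumors 1 to 4. Control tumors 1 to 3 thus stood far above all 5 late libraries, as the plot of macrophage-associated genes shows. Lyz2 differed by -4.32 ± 0.82 (adjusted p = 0.0657) over the 8 tumors and -5.24 ± 0.46 (adjusted p = 1.61e-05) without control tumor 4, and by -1.58 against that tumor alone. Gpnmb differed by -4.79 ± 0.94 (adjusted p = 0.0657) and -5.92 ± 0.39 (adjusted p = 1.53e-06), and by -1.39 against that tumor alone. Adgre1, which encodes F4/80, had 587, 637, 871 and 353 in control tumors 1 to 4 and 200.1, 164, 186 and 337 in blockade tumors 1 to 4. Cd68, a lysosomal marker, had 1576, 1689.8, 2296 and 416 in control tumors 1 to 4 and 255, 207, 293 and 412 in blockade tumors 1 to 4. Over the 8 tumors their fold changes were -1.45 ± 0.29 and -2.16 ± 0.46, with groups that did not overlap, and without control tumor 4 they were -1.69 ± 0.25 and -2.69 ± 0.23. Against control tumor 4 alone, Adgre1 differed by -0.73 (unadjusted p = 0.0727) and Cd68 by -0.56 (unadjusted p = 0.128).

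Control tumors 1 to 3 were close to the rest of the series in these genes. Lyz2 stood at 6315 to 16563 CPM in the other 15 tumors, at 5801 to 8451 CPM in control tumors 1 to 3, at 494 CPM in control tumor 4 and at 82.6 to 372 CPM in the blockade tumors. Mmp12, the macrophage elastase, was picked after its values were seen. It had 1022 to 2741, 986 to 1411, 45.1 and 2.23 to 42.8 CPM in the same order. Other macrophage genes did not share the pattern, and these too were picked after their values were seen. The complement gene C1qa had 2944, 3547, 3873 and 2437 in control tumors 1 to 4 and 3337, 3438, 2721 and 3503 in blockade tumors 1 to 4. Its neighbor C1qb did fall without control tumor 4, with 3238, 3248, 4151 and 1575 in control tumors 1 to 4 and 1581, 1171, 1214 and 2129 in blockade tumors 1 to 4. The fractalkine receptor gene Cx3cr1 had 1004, 1089.9, 1114 and 1025 in control tumors 1 to 4 and 1165, 1101, 1151 and 1282 in blockade tumors 1 to 4. All 8 tumors lay within a narrow band for Cx3cr1. Ptprc, which encodes CD45 on all leukocytes, had 1226, 1257, 1932 and 1734 in control tumors 1 to 4 and 2056, 1679, 2555 and 1579 in blockade tumors 1 to 4. The summed value of the 22 macrophage genes was 41753 to 201838 in the control tumors and 40310.4 to 54295 in the blockade tumors, with 41753 in control tumor 4, and none of its markers was at 0. The low level of these genes moved with place in the sheet as well as with the antibody, and the part of each was not tested.

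**Figure D2:**
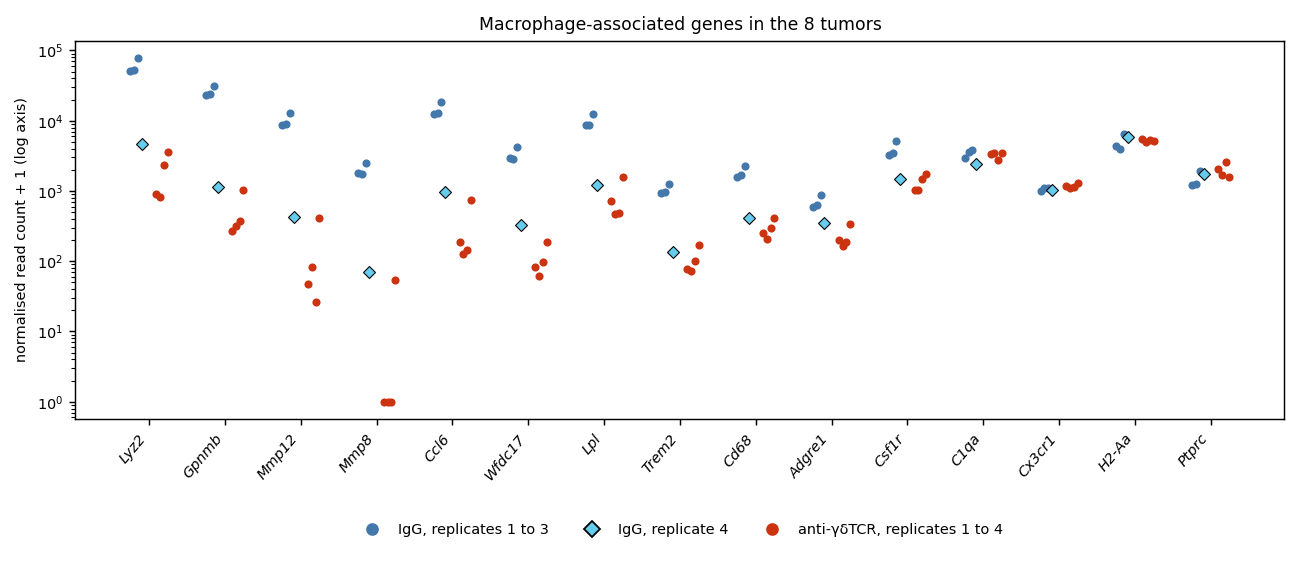
Points show normalised read counts plus 1 on a log axis for 15 genes in each of the 8 tumors (blue circles, control tumors 1 to 3; diamond, control tumor 4; red, blockade tumors). For Gpnmb the diamond lies far below the blue circles, at 1119.8 in control tumor 4 and 267 to 1039.8 in the blockade tumors. For Mmp8 the diamond (69.6) lies near blockade tumor 4 (53.9) and far above the other blockade tumors, which had 0. C1qa, Cx3cr1, H2-Aa and Ptprc lie in overlapping ranges in both groups.

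Neutrophil, chemokine and dendritic cell genes also split within each list. Among 13 neutrophil genes tested, 10 were lower and 3 higher. At unadjusted p under 0.05, 4 were lower and 1 was higher, against 9.0% and 12.7% of all genes. Without control tumor 4, 4 fell and 1 rose, against 4.84% and 9.50% of all genes. Mmp8 encodes neutrophil collagenase. The values of Mmp8 were 1825, 1753, 2484 and 69.6 in control tumors 1 to 4 and 0, 0, 0 and 53.9 in blockade tumors 1 to 4. In the other 15 tumors it stood at 225 to 574 CPM. Its fold changes were -8.31 ± 1.46, -9.52 ± 1.21 and -4.70 and depend on the pseudocount, since 3 blockade tumors had 0 reads. Clec4d and Acod1, which myeloid cells also switch on when activated, had fold changes of -4.59 ± 1.03, -5.72 ± 0.60 and -1.20 for Clec4d and of -2.61 ± 0.71, -2.97 ± 0.69 and -1.54 for Acod1. S100a8, a member of the list that was picked after its values were seen, had 182, 238, 297 and 296 in control tumors 1 to 4 and 123, 306, 56.1 and 239.9 in blockade tumors 1 to 4. Its groups overlapped. Il1b is also on this list and is described with its family. The median of the list was -0.72 over the 8 tumors, -0.92 without control tumor 4 and -0.65 against that tumor alone.

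Of 24 chemokine and chemokine receptor genes, 13 were higher and 11 lower (9 and 15 after quantile normalization). Without control tumor 4, 6 fell and 1 rose, against 4.84% and 9.50% of all genes. Over the chemokine list the medians were 0.026, 0.025 and -0.20. The myeloid chemokine gene Ccl6 had 12614, 12690.2, 18649.6 and 981 in control tumors 1 to 4 and 189.7, 126, 145 and 747 in blockade tumors 1 to 4. Ccl9 had 2016, 2137, 2729 and 292 in control tumors 1 to 4 and 153, 129, 121 and 312 in blockade tumors 1 to 4. Both were lower in the late libraries as a set. Ccl6 differed by -5.02 ± 0.88 over the 8 tumors, -5.99 ± 0.50 (adjusted p = 1.12e-05) without control tumor 4 and -2.11 against that tumor alone (unadjusted p = 0.0157). Ccl17, a chemokine of activated dendritic cells, had 66.7, 66.2, 52.5 and 22.1 in control tumors 1 to 4 and 11.8, 2.29, 23.5 and 18.7 in blockade tumors 1 to 4, and fell without control tumor 4 (-2.03 ± 0.63, -2.39 ± 0.61 and -0.95, adjusted p = 0.0241 for the second).

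Type 1 conventional dendritic cells (cDC1) present tumor antigen to CD8+ T cells. Of 13 genes of these cells, 8 were lower and 5 higher, and 2 (Irf8 and Naaa) fell without control tumor 4. Irf8 encodes the factor that cDC1 need to form, and it is also expressed in macrophages. The values of Irf8 were 931, 839, 1124 and 300.4 in control tumors 1 to 4 and 378, 358, 340.1 and 359.8 in blockade tumors 1 to 4. Of all 8, control tumor 4 was the lowest. Irf8 differed by -0.996 ± 0.35 over the 8 tumors, -1.41 ± 0.15 without control tumor 4 and 0.26 against that tumor alone, with the sign turned. Naaa, a lipid amidase gene that is high in cDC1, had 195, 168, 216 and 120.4 in control tumors 1 to 4 and 92.9, 106, 103 and 93.5 in blockade tumors 1 to 4. Zbtb46, a factor of conventional dendritic cells, had 53.4, 57.3, 49 and 64.1 in control tumors 1 to 4 and 96.8, 73.2, 65.1 and 89.1 in blockade tumors 1 to 4. Naaa was lower and Zbtb46 was higher in all 4 blockade tumors than in any control, with fold changes of -0.78 ± 0.21, -0.95 ± 0.19 and -0.28 for Naaa and 0.52 ± 0.22, 0.58 ± 0.24 and 0.32 for Zbtb46. The median of the list was -0.51, -0.73 without control tumor 4 and 0.21 against that tumor alone. Of 10 genes of type 2 and mature dendritic cells, Itgax (CD11c) and Ccl22 fell and Il12b rose without control tumor 4, and the list medians were -0.45, -0.54 and -0.26. Itgax had 1581, 1634, 2221 and 287 in control tumors 1 to 4 and 215, 221, 208 and 227 in blockade tumors 1 to 4. Il12b, which encodes the p40 chain of IL-12 and IL-23, had 2.11, 3.41, 6.42 and 57.4 in control tumors 1 to 4 and 71.9, 62.9, 83.2 and 73.7 in blockade tumors 1 to 4. Control tumor 4 stood with the blockade tumors in both. Itgax had fold changes of -2.38 ± 0.52, -3.04 ± 0.16 and -0.40 (unadjusted p = 0.112 for the last). Those of Il12b were 3.07 ± 0.78, 3.98 ± 0.38 and 0.33 (unadjusted p = 0.555 for the last). Of 9 MHC class II genes 7 were higher and 2 lower, but 4 and 5 after quantile normalization, and H2-DMa, which encodes a chain of the peptide-loading factor, fell without control tumor 4 (-1.08 ± 0.28, -1.34 ± 0.22 and -0.30, adjusted p = 0.00166 for the second). Medians over the class II list were 0.17, 0.25 and -0.068. Cd74, the invariant chain gene, had 5267, 6249, 7213 and 4859 in control tumors 1 to 4 and 6696, 7992, 7655 and 7818 in blockade tumors 1 to 4. Control tumor 4 was the lowest there, and the groups overlapped.

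Cell cycle genes were lower on blockade throughout, and here control tumor 4 stood with the other controls. The list held 25 genes of DNA replication and mitosis. All 25 were lower over the 8 tumors, also after TMM rescaling and quantile normalization. At unadjusted p under 0.05, 22 were lower, against 9.0% of all genes. For 5 the groups did not overlap, against 4.98% of all genes. With control tumor 4 left out, Pcna, Plk1 and Bub1 fell, against 4.84% of all genes, and the other members missed the adjusted threshold. Against control tumor 4 alone all 25 were lower, 19 of them at unadjusted p under 0.05. Their median fold change was -0.67, against -0.012 for all protein-coding genes, and -0.57 without control tumor 4 and -0.997 against that tumor alone. These genes rise and fall together with the share of dividing cells, so they are not 25 separate readings. The median deviation of the 25 genes from the control mean was -0.36, 0.0079, 0.092 and 0.24 in control tumors 1 to 4 and -0.51, -1.01, -0.32 and -0.89 in blockade tumors 1 to 4. Control tumor 1 thus lay slightly below blockade tumor 3, which was the highest of its group.

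Pcna encodes the sliding clamp of replication. The values of Pcna were 326, 399.9, 485 and 341 in control tumors 1 to 4 and 194, 142, 123 and 220.1 in blockade tumors 1 to 4. Every blockade tumor was below every control. Pcna differed by -1.21 ± 0.22 (adjusted p = 0.0657) over the 8 tumors, -1.26 ± 0.23 (adjusted p = 0.00356) without control tumor 4 and -1.04 (unadjusted p = 0.0116) against that tumor alone. Plk1 encodes the polo-like kinase of mitosis. The values of Plk1 were 561, 657, 693 and 889 in control tumors 1 to 4 and 404, 334, 447 and 332 in blockade tumors 1 to 4. Control tumor 4 was the highest of the 8. Plk1 differed by -0.87 ± 0.17 (adjusted p = 0.0657), -0.75 ± 0.16 (adjusted p = 0.00918) and -1.24 (unadjusted p = 0.000322) in the same order. Bub1, a kinase gene of the spindle checkpoint, had 56.2, 99.6, 107 and 120.4 in control tumors 1 to 4 and 43.2, 33.2, 38 and 33 in blockade tumors 1 to 4. Ccna2, which encodes cyclin A2, had 229, 284, 287 and 316 in control tumors 1 to 4 and 189.7, 133, 219 and 129.8 in blockade tumors 1 to 4. In both the groups were apart, with fold changes of -1.31 ± 0.28, -1.18 ± 0.30 and -1.69 for Bub1 and -0.76 ± 0.21, -0.69 ± 0.22 and -0.94 for Ccna2. Mki67, the proliferation marker Ki-67, was picked after its values were seen. It had 1084, 911, 1172 and 1486 in control tumors 1 to 4 and 1173, 436, 963 and 537 in blockade tumors 1 to 4, and blockade tumor 1 lay among the controls. Of 7 replication-dependent histone genes, which make transcripts without a poly(A) tail that a 3′ tag library captures poorly, 6 were lower and 0 had an unadjusted p under 0.05, with medians of -0.35, -0.32 and -0.22.

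**Figure D3:**
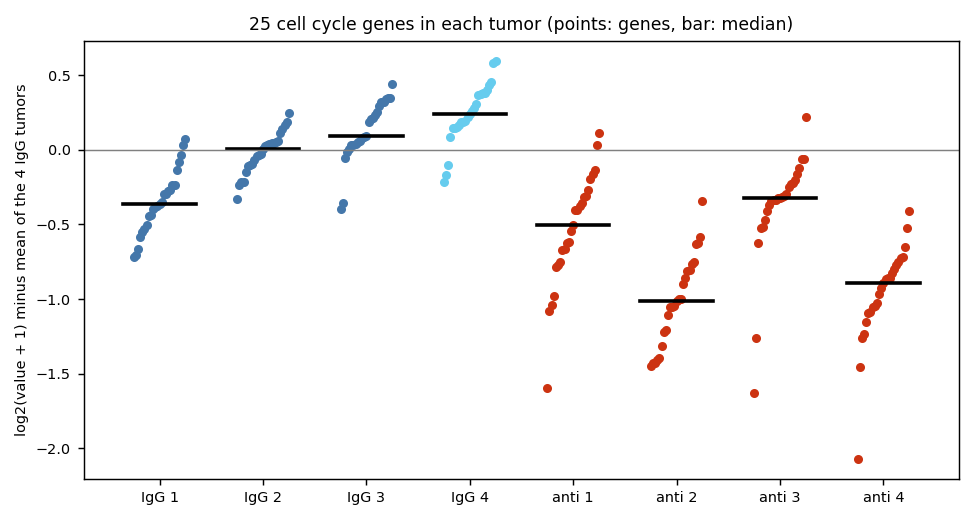
Each point is one of the 25 cell cycle genes, as log2(value + 1) minus the mean of the 4 control (IgG) tumors, and each bar is the median of a tumor. The median is 0.24 in control tumor 4 and between -1.01 and -0.32 in the blockade tumors.

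The promoters of Plk1 and Pcna are shown because these genes fell and lead the list, and that of Mcm3, a helicase subunit gene chosen after its promoter was read, for its sites for E2F, the factor family that drives replication genes. Sequences are RefSeq promoters on GRCm38.p6, from 250 bases before to 50 after the transcript start, written 5′ to 3′ on the strand of the gene. Capitals mark the CCAAT box (CCAAT) and the CHR element (TTTGAA) in Plk1, the CCAAT box, on the opposite strand, in Pcna, and the E2F motifs TTTCCCGC, on the opposite strand, and TTTGGCGC in Mcm3. Both strands were searched. They lie at chr7:122159185-122159484, forward strand, at chr2:132253131-132253430, reverse strand, and at chr1:20820263-20820562, reverse strand.
Plk1: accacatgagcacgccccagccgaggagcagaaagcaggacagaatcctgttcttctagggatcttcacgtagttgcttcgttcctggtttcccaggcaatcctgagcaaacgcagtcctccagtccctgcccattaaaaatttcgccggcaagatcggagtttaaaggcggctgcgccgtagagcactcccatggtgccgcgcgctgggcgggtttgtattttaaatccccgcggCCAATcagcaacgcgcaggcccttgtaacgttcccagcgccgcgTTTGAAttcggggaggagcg
Pcna: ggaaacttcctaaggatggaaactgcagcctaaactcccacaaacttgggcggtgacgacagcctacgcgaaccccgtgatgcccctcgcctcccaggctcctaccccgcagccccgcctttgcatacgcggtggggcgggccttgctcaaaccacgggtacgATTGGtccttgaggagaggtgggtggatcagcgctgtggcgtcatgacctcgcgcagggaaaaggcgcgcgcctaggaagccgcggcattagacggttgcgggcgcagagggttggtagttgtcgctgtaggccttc
Mcm3: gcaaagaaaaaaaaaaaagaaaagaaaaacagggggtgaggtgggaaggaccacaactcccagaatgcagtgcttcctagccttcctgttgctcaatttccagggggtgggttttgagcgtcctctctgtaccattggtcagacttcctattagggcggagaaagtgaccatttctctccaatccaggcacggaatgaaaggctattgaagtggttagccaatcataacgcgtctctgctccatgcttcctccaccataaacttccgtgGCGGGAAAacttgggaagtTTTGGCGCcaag
The CCAAT boxes of Mcm3 are left in lower case. A promoter was found for 21 of the 25 cell cycle genes. A CCAAT box was in 18 of the 21, against 41.1% of the 27025 genes and 37.4% of the 32851 promoters in the RefSeq table. The CHR letters were in 9 of the 21, against 20.2% of genes and 17.9% of promoters. Either E2F motif was in 5 of the 21, against 1.80% of genes and 1.56% of promoters. Such matches describe letters and do not measure binding.

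Interferon-stimulated genes were higher on blockade in 23 of 25 cases (21 after quantile normalization). They are switched on by type I interferon and in part by interferon-γ. The median deviation of the list from the control mean was 0.29, 0.83, 0.23 and 0.20 in blockade tumors 1 to 4. Blockade tumor 2 thus stood above the rest of its group. By the mean log2(value + 1) of the list, blockade tumor 4 (8.60) lay below control tumor 3 (8.63). At unadjusted p under 0.05, 9 were higher and 0 lower, against 12.7% and 9.0% of all genes. For 5 the groups did not overlap, all of them higher, against 4.57% of all genes. Of the 25, Ifih1 and Cxcl9 rose without control tumor 4, against 9.50% of all genes. The median was 0.42, and 0.32 without control tumor 4 and 0.44 against that tumor alone, where 23 of 25 were higher and 3 had an unadjusted p under 0.05. Ifih1 encodes the RNA sensor MDA5. The values of Ifih1 were 718, 559.6, 619 and 829 in control tumors 1 to 4 and 1065, 1199, 995 and 943 in blockade tumors 1 to 4. Its fold change was 0.63 ± 0.15 (adjusted p = 0.0657) over the 8 tumors and 0.73 ± 0.15 (adjusted p = 0.00586) without control tumor 4, and 0.33 against that tumor alone. Cxcl9, a chemokine for CXCR3+ T cells, had 80.1, 109, 106 and 170.1 in control tumors 1 to 4 and 226, 223, 152 and 188 in blockade tumors 1 to 4. Control tumor 4 exceeded 1 blockade tumor there. Oas2, an antiviral synthetase gene, had 385, 334, 329 and 227 in control tumors 1 to 4 and 446, 1014, 559 and 404 in blockade tumors 1 to 4. Blockade tumor 2 was the highest in Oas2, and the groups did not overlap. Oas2 differed by 0.85 ± 0.28, by 0.70 ± 0.28 without control tumor 4 (adjusted p = 0.136), and by 1.31 (unadjusted p = 0.00852) against that tumor alone. Isg15, a ubiquitin-like modifier gene picked after its values were seen, had 1187, 1217, 1308 and 1293 in control tumors 1 to 4 and 1542, 2699.8, 1641 and 1483 in blockade tumors 1 to 4. Of 13 genes of MHC class I presentation, 10 were higher and 3 lower, and 4 were higher at unadjusted p under 0.05, with medians of 0.37, 0.19 and 0.56. Psmb9, an immunoproteasome subunit gene, rose without control tumor 4 (0.83 ± 0.27, 1.05 ± 0.23 and 0.17, adjusted p = 0.00864 for the second). Tap1, the peptide transporter gene, had 1477, 1632, 1686 and 1108 in control tumors 1 to 4 and 1678, 2435, 2361 and 2031 in blockade tumors 1 to 4, with control tumor 4 as the lowest of the 8.

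The promoters of Ifih1 and Isg15 are shown for the ISRE core (GAAANNGAAA), the letters to which interferon-activated factors bind, with each match in capitals. They lie at chr2:62646206-62646505, reverse strand, and at chr4:156200769-156201068, reverse strand (GRCm38.p6).
Ifih1: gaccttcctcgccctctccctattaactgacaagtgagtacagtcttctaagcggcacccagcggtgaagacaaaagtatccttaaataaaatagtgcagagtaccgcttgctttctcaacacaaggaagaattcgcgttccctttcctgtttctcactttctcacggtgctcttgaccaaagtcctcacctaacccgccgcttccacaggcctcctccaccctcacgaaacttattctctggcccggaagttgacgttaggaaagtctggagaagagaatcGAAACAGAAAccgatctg
Isg15: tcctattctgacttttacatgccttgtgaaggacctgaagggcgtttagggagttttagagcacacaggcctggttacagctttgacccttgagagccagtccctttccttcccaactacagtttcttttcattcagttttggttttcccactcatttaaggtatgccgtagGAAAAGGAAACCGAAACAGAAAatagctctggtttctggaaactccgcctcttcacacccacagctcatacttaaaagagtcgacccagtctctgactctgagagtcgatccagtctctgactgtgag
Isg15 held 3 overlapping matches and Ifih1 held 1. Of the 25 interferon-stimulated genes, 19 had a promoter in the table, and 13 of the 19 held the ISRE core on either strand, against 3.99% of the 27025 genes and 3.44% of the 32851 promoters. Such elements are a known feature of interferon-stimulated genes.

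Immediate early genes, which encode the AP-1 factors and other transcripts that stress and growth signals switch on within minutes, were higher in 18 of 19 cases. At unadjusted p under 0.05, 5 were higher and 0 lower, against 12.7% and 9.0% of all genes. Fosb, Jun, Atf3 and Fosl1 rose without control tumor 4, against 9.50% of all genes. The median was 0.38, 0.36 without control tumor 4 and 0.51 against that tumor alone. The median deviation of the list from the control mean was -0.27, -0.043, 0.30 and -0.20 in control tumors 1 to 4. It was 0.80, 0.63, 0.12 and 0.13 in blockade tumors 1 to 4, so blockade tumors 3 and 4 lay below control tumor 3. Fosb had 28.1, 25.3, 53.7 and 17.7 in control tumors 1 to 4 and 404, 344, 228 and 67.1 in blockade tumors 1 to 4. Control tumor 4 was the lowest of the 8, and the blockade tumors spread widely above the controls. Fosb differed by 2.86 ± 0.54, 2.64 ± 0.55 (adjusted p = 0.00692) without control tumor 4 and 3.53 (unadjusted p = 0.00117) against that tumor alone. In the other 15 tumors Fosb ranged from 0.888 to 15.5 CPM, and in the blockade tumors from 6.94 to 38.6 CPM, so the ranges overlap. Jun had 1301, 1159, 1449.5 and 1824 in control tumors 1 to 4 and 2905, 2791, 3003 and 2015 in blockade tumors 1 to 4. Atf3 had 603, 573, 852 and 939 in control tumors 1 to 4 and 1349.9, 1047, 1525 and 885 in blockade tumors 1 to 4. Jun kept the groups apart, whereas control tumor 4 overlapped the blockade tumors in Atf3. Fosl1 had 0 to 3.41 in control tumors 1 to 3, 55.2 in control tumor 4 and 16 to 60.2 in the blockade tumors. Immediate early transcripts also respond to tissue handling and dissociation, and the part of handling was not tested. Heat shock chaperone genes, another handling-sensitive list, were 9 higher and 6 lower of 15, but 2 higher and 13 lower against control tumor 4 alone. Their medians were 0.072, 0.22 and -0.17. Hsph1 and Dnajb1 rose without control tumor 4, against 9.50% of all genes. Dnaja1, a co-chaperone gene, was lower in every blockade tumor than in any control (-0.50 ± 0.16, -0.39 ± 0.15 and -0.82).

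The IL-1 family, to which IL-38 belongs, held 13 tested genes of ligands, receptors and inhibitors. Of these, 8 were higher and 5 lower, 4 and 2 at unadjusted p under 0.05, with medians of 0.16, 0.24 and 0.20. Il1b, Il1r1, Il18r1 and Il1rl1 rose and Il1rn fell without control tumor 4, against 9.50% and 4.84% of all genes. Among ligands, Il1b had 40.7, 84.6, 129 and 382 in control tumors 1 to 4 and 844, 509, 599 and 375 in blockade tumors 1 to 4. Control tumor 4 stood at the lower edge of the blockade tumors. Il1b differed by 2.27 ± 0.56, 2.85 ± 0.37 (adjusted p = 0.000298) without control tumor 4, and 0.54 (unadjusted p = 0.336) against that tumor alone. Among receptors, Il1r1, the signaling receptor for IL-1, had 74.4, 62.8, 85.7 and 99.4 in control tumors 1 to 4 and 118, 217, 177 and 165 in blockade tumors 1 to 4. Il1rl1, which encodes the IL-33 receptor ST2, had 14, 6.82, 6.42 and 11 in control tumors 1 to 4 and 18.3, 27.5, 25.3 and 26.4 in blockade tumors 1 to 4. Both had all blockade tumors above all controls, with fold changes of 1.05 ± 0.24, 1.16 ± 0.25 and 0.73 for Il1r1 and 1.31 ± 0.39, 1.39 ± 0.41 and 1.06 for Il1rl1. Il18r1, an IL-18 receptor chain, had 35.1, 43.7, 65.3 and 65.2 in control tumors 1 to 4 and 62.8, 509, 226 and 189 in blockade tumors 1 to 4, and blockade tumor 1 lay among the controls. Il1rn, the natural IL-1 receptor antagonist and picked after its values were seen, had 626, 795, 864 and 451 in control tumors 1 to 4 and 408, 447, 649.5 and 381 in blockade tumors 1 to 4. Control tumor 4 again lay with the blockade tumors, and the fold changes were -0.52 ± 0.24, -0.71 ± 0.20 and 0.033.

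Genes of the Bcl2 family, which set the threshold of cell death at mitochondria, differed in both directions. Of 15 tested, 4 were higher and 11 lower, and without control tumor 4, 3 rose and 5 fell. Of all genes, 9.50% rose and 4.84% fell. Their medians came to -0.31, -0.18 and -0.024. The protective gene Bcl2l1 (Bcl-xL) had 396, 441, 397 and 816 in control tumors 1 to 4 and 926, 1079, 1162 and 1054 in blockade tumors 1 to 4. The death-promoting gene Bcl2l11 (Bim) had 1025, 1159, 1003 and 928 in control tumors 1 to 4 and 725, 623, 555 and 489.6 in blockade tumors 1 to 4. Bid, another death-promoting gene, had 244, 247, 286 and 231 in control tumors 1 to 4 and 102, 141, 175 and 116 in blockade tumors 1 to 4. In all 3 the groups did not overlap. The fold change was 1.11 ± 0.23 for Bcl2l1, -0.79 ± 0.15 for Bcl2l11 and -0.94 ± 0.20 for Bid (adjusted p = 0.0657 for each). With control tumor 4 left out it was 1.35 ± 0.14, -0.84 ± 0.16 and -0.98 ± 0.22. Against control tumor 4 alone, it was 0.37, -0.65 and -0.82 (unadjusted p = 0.0975, 0.0192 and 0.0253). Bbc3 (Puma), also death-promoting and picked after its values were seen, had 154, 196, 311 and 1311 in control tumors 1 to 4 and 1445, 1222, 1949 and 1023 in blockade tumors 1 to 4. Control tumor 4 was at the level of the blockade tumors for Bbc3.

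**Figure D4:**
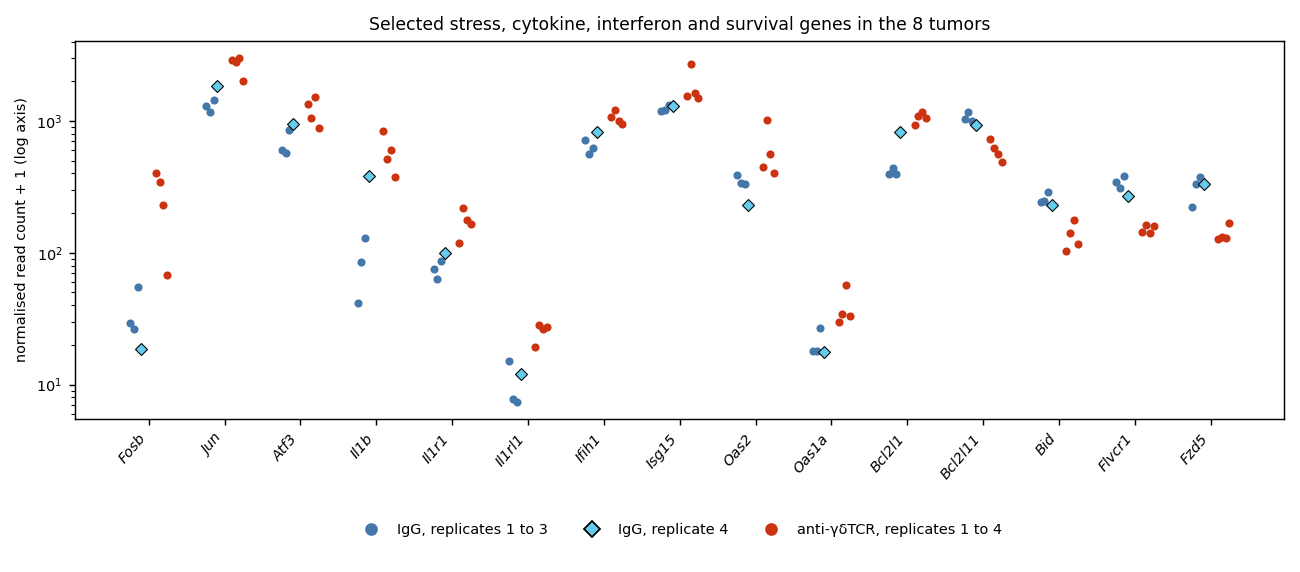
Points show normalised read counts plus 1 on a log axis for 15 immediate early, IL-1 family, interferon-stimulated, Bcl2 family and other genes in the 8 tumors (symbols as in the plot of macrophage-associated genes). For Fosb the diamond of control tumor 4 (17.7) lies with the other controls, for Il1b (382) it lies with the blockade tumors.

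Most luminal and basal genes were higher on blockade, but most milk protein genes were lower. Of 20 luminal genes 19 were higher, 4 of them at unadjusted p under 0.05, against 12.7% of all genes. Prlr and Krt18 rose without control tumor 4, against 9.50% of all genes. The luminal medians were 0.36, 0.41 and 0.21. The mean log2(value + 1) of the list was 9.72, 9.51, 9.68 and 9.80 in control tumors 1 to 4. In blockade tumors 1 to 4 it was 9.61, 10.53, 10.21 and 10.01, so blockade tumor 1 lay among the controls. In Pgr and Krt19, luminal genes picked after their values were seen, blockade tumor 1 was the lowest of the 8 (31.4 and 506). Prlr, the prolactin receptor gene, had 2743, 1877, 1741 and 2176 in control tumors 1 to 4 and 2929, 4489.8, 3796 and 3075 in blockade tumors 1 to 4. Every blockade tumor was above every control. Prlr differed by 0.74 ± 0.19 (adjusted p = 0.0662) and 0.76 ± 0.20 (adjusted p = 0.03) without control tumor 4, and by 0.69 against that tumor alone. Cldn7, a tight junction gene, had 910.2, 991, 1063 and 979.5 in control tumors 1 to 4 and 1245, 1242, 1529 and 1303 in blockade tumors 1 to 4. Esr1, the estrogen receptor gene, had 86.4, 79.8, 61.8 and 77.3 in control tumors 1 to 4 and 87.6, 169, 99.5 and 129.8 in blockade tumors 1 to 4. Their fold changes were 0.43 ± 0.12, 0.43 ± 0.14 and 0.44 for Cldn7 and 0.63 ± 0.24, 0.64 ± 0.27 and 0.60 for Esr1, and neither was called without control tumor 4 (adjusted p = 0.0652 and 0.161). Of 12 basal and myoepithelial genes 11 were higher and 3 had an unadjusted p under 0.05, and 0 rose without control tumor 4, with medians of 0.56, 0.52 and 0.54. Krt5, a basal keratin gene, had 313, 222, 234 and 392 in control tumors 1 to 4 and 259, 808, 662 and 417 in blockade tumors 1 to 4. Blockade tumors 2 and 3 were the highest, and blockade tumor 1 lay among the controls. The summed value of the basal genes was 3186 to 5861 in the control tumors and 3969 to 11194 in the blockade tumors. Of 12 milk protein and lactation genes 8 were lower, and without control tumor 4, Mfge8 and Plin2 fell and Btn1a1 rose. The list medians were -0.60, -0.51 and -0.31. Mfge8, a milk fat globule protein gene also used by macrophages, had 30484, 44866, 42264 and 14537 in control tumors 1 to 4 and 11043, 14138, 19048 and 12133 in blockade tumors 1 to 4. Control tumor 4 lay within the blockade tumors.

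Few stromal genes were called without control tumor 4. Of 20 fibroblast and matrix genes 16 were higher. An unadjusted p under 0.05 was reached by 3 higher and 1 lower members, against 12.7% and 9.0% of all genes. Sparc alone rose without control tumor 4, against 9.50% of all genes. Blockade tumor 4 stood apart. The median deviation of the list from the control mean was -0.048, -0.12, -0.14 and 1.16 in blockade tumors 1 to 4, and the summed level in the first 3 of these lay within the range of the controls. Its medians were 0.25, 0.28 and 0.10. Sparc encodes a collagen-binding matrix protein. The values of Sparc were 11987, 9561, 10208 and 10967 in control tumors 1 to 4 and 14517, 21211, 21325 and 23807 in blockade tumors 1 to 4. The groups were apart, control tumor 4 included. Sparc differed by 0.90 ± 0.20, 0.92 ± 0.21 (adjusted p = 0.0138) without control tumor 4 and 0.86 (unadjusted p = 0.0185) against that tumor alone. Fbn1 (fibrillin) had 1327, 1254, 1224 and 1149 in control tumors 1 to 4 and 1393, 1808, 1811 and 2179 in blockade tumors 1 to 4. Fn1 (fibronectin) had 1837, 2582, 3193 and 1917 in control tumors 1 to 4 and 1197, 942, 1169 and 2341 in blockade tumors 1 to 4. Fbn1 was higher (0.52 ± 0.15, 0.49 ± 0.16 and 0.63) and Fn1 lower (-0.81 ± 0.28, -0.90 ± 0.29 and -0.53), and neither was called in any of the 3 ways. Of 14 endothelial genes 8 were higher and 6 lower, and 0 were called without control tumor 4, with medians of 0.095, 0.025 and 0.16. Tissue neighbors of the gland varied between single tumors. All 14 skeletal muscle genes were higher on blockade, and 0 were called without control tumor 4. Their medians were 1.23, 0.40 and 3.86, and against control tumor 4 alone 13 of the 14 had an unadjusted p under 0.05. The summed value of these muscle genes was 345 to 5301 in the control tumors and 1120.4 to 10793 in the blockade tumors, and control tumor 4 was the lowest of the 8. Adipocyte genes were 5 higher and 8 lower of 13, and Pparg, the adipocyte and macrophage regulator, rose without control tumor 4. The list medians were -0.05, 0.15 and -0.78. Pparg had 28.1, 30.03, 22.2 and 209 in control tumors 1 to 4 and 211, 199, 261 and 154 in blockade tumors 1 to 4, and its fold changes were 2.15 ± 0.60, 2.89 ± 0.25 and -0.043. Keratinocyte genes were 5 higher and 2 lower of 7 (3 and 4 after quantile normalization; 1 and 6 against control tumor 4 alone), with medians of 0.53, 1.17 and -1.53. Krt1, a skin keratin gene, stood at 39.8 in control tumor 4 against 0.682 to 1.40 in the other controls. Its values in the blockade tumors were 17, 9.16, 5.43 and 12.1.

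The cells targeted by the antibody were at the limit of what these libraries show. Of 18 γδ T-cell genes on the list, 6 passed the filter on low values, which kept genes with a mean value of 5 or more. Of the 6, 5 were higher and 1 lower (4 and 2 after quantile normalization), 0 were called without control tumor 4, and the medians were 0.60, 0.50 and 0.59. Trdv1 and Il17a had 0 reads in all 8 tumors. Trdc, the constant region of the δ chain, had 12, 6, 13 and 0 reads in control tumors 1 to 4 and 4, 12, 2 and 9 in blockade tumors 1 to 4. Those are 0 to 13 reads a library, and a count of 0 allows up to 3 reads, for counting error only. The exact two-sided permutation test over 70 groupings gave p = 0.371 for Trdc (fold change 0.87), and p = 0.743 over 35 groupings without control tumor 4 (fold change 0.15). The smallest p that these designs allow is 0.0286 with 4 against 4 and 0.0571 with 3 against 4, so that without control tumor 4 no p below 0.05 can be reached. Xcl1, a chemokine of cytotoxic lymphocytes that attracts cDC1, had 27, 21, 61 and 16 reads in control tumors 1 to 4 and 3, 11, 11 and 16 in blockade tumors 1 to 4. Its receptor gene on cDC1, Xcr1, had 8, 2, 12 and 5 reads in control tumors 1 to 4 and 9, 3, 5 and 9 in blockade tumors 1 to 4. Cd8a, a CD8 chain gene, had 12, 14, 23 and 26 reads in control tumors 1 to 4 and 22, 27, 1 and 20 in blockade tumors 1 to 4. The groups overlapped in all of these. The exact permutation p was 0.229 for Xcl1 (fold change -0.75), 0.229 for Xcr1 (0.73) and 0.943 for Cd8a (0.13). With control tumor 4 left out, the fold changes were -0.82, 0.83 and 0.48. Adjusted over the 6 single genes (these 4, Dll1 and Hes1), the exact permutation p was 0.446 for 5 of them and 0.943 for Cd8a. Sox13, a factor of IL-17-producing γδ T cells that epithelium also expresses, had 187, 89.4, 85.2 and 110.4 in control tumors 1 to 4 and 171, 179.7, 168 and 190.4 in blockade tumors 1 to 4. It was the single member of the γδ list with an unadjusted p under 0.05 (0.0237).

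Of 15 αβ T-cell genes 10 were higher and 5 lower, but 5 and 10 after quantile normalization, and Cd28, a costimulatory receptor gene, fell without control tumor 4. Cd28 had 39.3, 32.8, 33.2 and 16.6 in control tumors 1 to 4 and 13.1, 13.7, 1.81 and 8.80 in blockade tumors 1 to 4. Cd2, an adhesion receptor gene, had 17.6, 21.8, 22.2 and 24.3 in control tumors 1 to 4 and 40.5, 43.5, 25.3 and 31.9 in blockade tumors 1 to 4. The groups did not overlap in either, in opposite directions. Their fold changes were -1.79 ± 0.57, -2.05 ± 0.58 and -1.01 for Cd28 and 0.67 ± 0.30, 0.73 ± 0.33 and 0.49 for Cd2. The list medians were 0.25, 0.43 and -0.28, and against control tumor 4 alone 12 of the 15 were lower. Of 14 genes of CD8+ and cytotoxic lymphocytes 9 were higher and 5 lower, but 5 and 9 after quantile normalization, and 0 had an unadjusted p under 0.05. Their medians were 0.14, 0.23 and -0.36. B-cell and plasma cell genes were 12 higher and 3 lower of 15. Of these, 4 rose without control tumor 4, against 9.50% of all genes, and the direction of the list turned against that tumor alone. The median was 0.19 over the 8 tumors, 1.14 without control tumor 4 and -1.13 against that tumor alone. Ighm, the µ heavy chain gene, was picked after its values were seen. It had 69.5, 77.1, 110.2 and 1211 in control tumors 1 to 4 and 238, 579, 170.1 and 149 in blockade tumors 1 to 4. Control tumor 4 was the highest of all 8. Of 13 checkpoint genes 9 were lower. Without control tumor 4, Vsir, Nt5e and Cd274 fell, against 4.84% of all genes. Against control tumor 4 alone, however, 8 were higher and 5 lower. Medians over the checkpoint list were -0.26, -0.13 and 0.19. Cd274, which encodes PD-L1, had 211, 206, 293 and 40.9 in control tumors 1 to 4 and 56.2, 89.3, 28.9 and 48.4 in blockade tumors 1 to 4. Control tumor 4 stood with the blockade tumors, and the fold changes were -1.54 ± 0.57, -2.16 ± 0.34 and 0.33.

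Notch ligands, receptors and targets, the pathway named in the study for this comparison, were 10 higher and 8 lower of 18. By qPCR, the study reports Dll1 and Hes1 as induced in knockout tumors but not under γδ TCR blockade. It also shows a heatmap of Notch genes, and the qPCR values were not analysed here. At unadjusted p under 0.05, 3 were higher and 1 lower, against 12.7% and 9.0% of all genes. Lfng and Hey1 rose without control tumor 4, against 9.50% of all genes. The list medians were 0.13, 0.086 and 0.079. The ligand gene Dll1 had 121, 80.5, 139 and 100.5 in control tumors 1 to 4 and 78.5, 109.9, 97.7 and 89.1 in blockade tumors 1 to 4. The target gene Hes1 had 701, 1254, 1310.1 and 896 in control tumors 1 to 4 and 628, 1251, 709 and 668 in blockade tumors 1 to 4. The groups overlapped in both, and the exact permutation p was 0.314 for Dll1 (fold change -0.21, and -0.25 without control tumor 4) and 0.229 for Hes1 (-0.37 and -0.42). Nrarp, a feedback target of Notch, had 47.8, 69.6, 100.3 and 51.9 in control tumors 1 to 4 and 27.5, 46.9, 25.3 and 40.7 in blockade tumors 1 to 4. Notch4, the endothelial receptor gene, had 60.4, 51.9, 43.7 and 46.4 in control tumors 1 to 4 and 73.3, 126, 61.5 and 95.7 in blockade tumors 1 to 4. The groups were apart in both, Nrarp lower (-0.91 ± 0.32, -1.01 ± 0.35 and -0.60) and Notch4 higher (0.76 ± 0.27, 0.72 ± 0.29 and 0.87), and neither was called without control tumor 4 (adjusted p = 0.0841 and 0.141). Lfng, a glycosyltransferase gene that tunes ligand choice, differed by 1.47 ± 0.38, 1.89 ± 0.23 and 0.22.

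The metabolic and secretory lists were mixed. Of 23 glycolysis and hypoxia genes 12 were higher and 11 lower. Without control tumor 4, 3 rose and 2 fell, against 9.50% and 4.84% of all genes. After quantile normalization 8 were higher and 15 lower, and the medians were 0.00091, -0.016 and -0.23. Car9, a carbonic anhydrase of hypoxic tumor cells, had 96.9, 253, 536 and 194 in control tumors 1 to 4 and 77.2, 76.7, 59.7 and 82.5 in blockade tumors 1 to 4. P4ha1, a collagen prolyl hydroxylase gene, had 221, 179, 282 and 306 in control tumors 1 to 4 and 394, 383, 597 and 332 in blockade tumors 1 to 4. Both kept the groups apart, with fold changes of -1.60 ± 0.42, -1.67 ± 0.45 and -1.39 for Car9 and 0.78 ± 0.23, 0.89 ± 0.23 and 0.44 for P4ha1, and both were called without control tumor 4 (adjusted p = 0.0315 and 0.0238). Of 20 genes of cholesterol and fatty acid synthesis 19 were lower, 2 at unadjusted p under 0.05, and Srebf1 fell without control tumor 4. The medians of that list were -0.29, -0.34 and -0.052. Of 16 genes of endoplasmic reticulum stress and folding 9 were higher and 7 lower, with 6 and 10 after quantile normalization, and medians of 0.0028, -0.058 and 0.22. Edem1, which directs misfolded glycoproteins to degradation, had 529.5, 581, 699 and 475 in control tumors 1 to 4 and 394, 358, 320.2 and 315 in blockade tumors 1 to 4. It fell without control tumor 4 (-0.71 ± 0.16, -0.79 ± 0.16 and -0.46, adjusted p = 0.00557 for the second). Cytosolic ribosomal protein genes were 12 higher and 13 lower of 25, and mitochondrially encoded genes 1 higher and 7 lower of 8, with mt-Nd3 and mt-Co1 falling without control tumor 4. Against control tumor 4 alone the mitochondrial list turned, with 6 higher and 2 lower, and its medians were -0.39, -0.58 and 0.08. The ribosomal medians were -0.012, -0.057 and -0.093. Erythroid genes were 3 higher and 2 lower of 5 (medians of 0.71, 0.56 and 0.52), and nuclear retained and ribosomal RNA genes were 5 higher and 2 lower of 7 (medians of 0.23, 0.26 and 0.40).

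**Figure D5:**
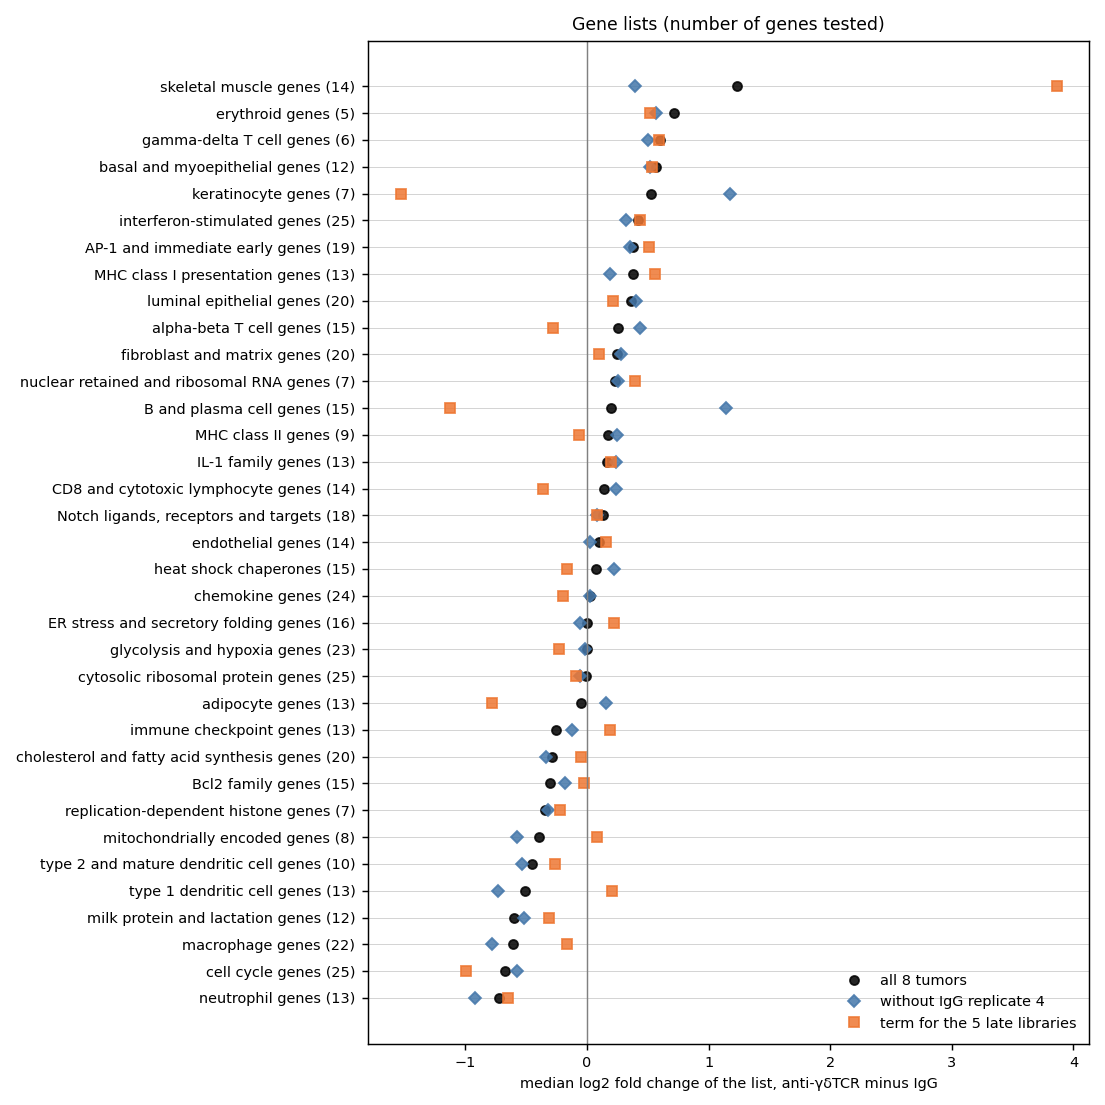
Each line is one of 35 gene lists, with the number of genes tested, and the x axis is the median log2 fold change, blockade minus control. Black circles are all 8 tumors, blue diamonds leave out control tumor 4 and orange squares set the blockade tumors against control tumor 4 alone. The 3 marks of the cell cycle list (-0.67, -0.57 and -0.997) stay below 0, whereas those of the B and plasma cell list fall on both sides of 0.

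Processed pseudogenes made up a large part of what rose without control tumor 4. Of 878 tested, plain and transcribed together, 647 rose and 3 fell, against 874 and 762 of 13747 protein-coding genes. Their median fold change was 2.98 over the 8 tumors, 3.88 without control tumor 4 and 0.20 against that tumor alone. Such copies can take reads from their parent genes, so their values are uncertain. The 5 with the highest mean values were Gm10036, Gm14806, Gm29228, Gm5805 and Gm6749. Gm29228 had 0, 0.682, 0 and 15854 in control tumors 1 to 4 and 19205, 15579.8, 24955 and 13714 in blockade tumors 1 to 4. Gm5805, which was also read in the other controls, had 824, 1032, 1457 and 3305 in control tumors 1 to 4 and 3763, 3578, 5612 and 3186 in blockade tumors 1 to 4. In both, control tumor 4 stood within the range of the blockade tumors. The 8-tumor adjusted p was 0.0657 for Gm29228, and the fold changes were 10.45 ± 2.63, 13.88 ± 0.25 and 0.17. Gm14806 and Gm6749 were alike, at 0.682 to 2.92 and 0 in control tumors 1 to 3 and at 4333 and 3357 in control tumor 4. Gm10036 had 3689, 3846, 7505 and 161 in control tumors 1 to 4 and 4582, 3671, 235 and 190.4 in blockade tumors 1 to 4, with high and low tumors in both groups.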

How the data were processed

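Bulk QuantSeq 3′ libraries of 4 IL-38 KO tumors given IgG and 4 given anti-γδ TCR antibody were compared, grouped by their labels. According to the submitters' processing notes, the authors used STAR, HTSeq and DESeq2 with the build GRCm39 (no source at hand states their versions), and deposited a table of gene counts divided by size factors, a signal value on the scale of reads. In each library the deposited signal was a whole multiple of the smallest step, within 0.0001% for all values, and whole reads were recovered from it (6273049 to 15879164 a library). Gene types came from GENCODE M21 and promoters from RefSeq (GRCm38.p6). Since their build differs from that of the files, coordinates are given for promoters alone.

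Genes with a mean value of 5 or more were tested on log2(value + 1) with limma 3.58.1 (trend; Benjamini-Hochberg; called at 0.05), over 8 tumors, without control tumor 4, and with a term for the late libraries. Reads were also tested with edgeR 4.0.16 and DESeq2 1.42.0. Single genes were compared with exact two-sided permutation tests. On simulated data with 200 changed genes, limma recovered 160 with 9 false calls at 4 against 4, and 136 with 4 false calls without control tumor 4. The simulated libraries shared the same gene means apart from depth and the 200 changes, with no late-library profile. These counts therefore do not speak to calls made where treatment and place in the sheet coincide. Named were the 10 genes higher and the 10 lower with the smallest p (mean value of at least 20), up to 4 members of each of 35 lists, 7 genes of the study question and the 5 highest processed pseudogenes. The gene lists and this rule were chosen with earlier results of these data known. The labels give the tumors as separate samples but do not state separate mice, so p-values measure the spread between these tumors. Library pairs differed by more than sampling noise, and none was counted once.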

Additional observations from a re-analysis of the deposited data

Results flagged for a closer look

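Dixon's ratio is the gap from the highest or lowest of 4 tumors to its neighbor over the range of the group. For single genes it was taken on log2(value + 1), and the values and reads printed beside it are not logged. It passed its critical value in 13 of 128 group and measure pairs, and chance alone passes about 1 in 20. In the control tumors the share of reads on processed pseudogenes had a ratio of 0.984, with control tumor 4 apart. The mean log2 level of the keratinocyte genes had a ratio of 0.973, at 5.39 in control tumor 4 and 3.06 to 3.13 in the other controls. Wfdc17 had a ratio of 0.853, with 2911, 2863, 4161 and 325 in control tumors 1 to 4. Xcr1 had a ratio of 0.832, with 2 reads in control tumor 2 against 5 to 12 in the others.

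Blockade tumor 4 stood apart in 4 measures. The fibroblast and matrix genes had a ratio of 0.987, at 10.93 in this tumor and 9.70 to 9.71 in the other blockade tumors. The macrophage genes had a ratio of 0.850, at 9.77 against 9.10 to 9.20. The endoplasmic reticulum stress genes had 0.867, at 9.44 against 9.80 to 9.85. Fzd5 had 0.901, at 168 against 127 to 130.5.

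Blockade tumor 2 stood apart in 3 measures. The interferon-stimulated genes had a ratio of 0.880, at 9.33 against 8.60 to 8.69. The checkpoint genes had 0.894, at 6.55 against 6.11 to 6.15. mt-Nd3 had 0.834, at 2.29 against 10.9 to 14.3. Blockade tumor 3, whose column name carries an added label, stood apart in the histone genes (0.896, at 6.79 against 6.16 to 6.22) and in Cd8a (0.865, with 1 read against 20 to 27).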

How the results depend on the processing

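Over the 8 tumors 0 genes were called under each other pseudocount, filter and scaling, edgeR and the late-library term, but DESeq2 called 1033 and limma with sample weights 2585. Leaving out 1 tumor in turn gave 0 to 2362 calls, and 0 in every case but that of control tumor 4. Without that tumor, edgeR called 2384, DESeq2 2881, limma after TMM rescaling (added after seeing the data) 2384, and limma on protein-coding genes alone after TMM 1525. Of the 20 genes named first, 0 were called over the 8 tumors and 20 by DESeq2, with sample weights, without control tumor 4, and there also by edgeR, by DESeq2 and on protein-coding genes alone. The range over tumors left out was 0 to 20. Of all 16481 genes, 3570 had an unadjusted p under 0.05 over the 8 tumors. The shares of all genes with the late-library term are given in the Results. Counts over the gene lists are to be read against these, since the lists were written with earlier results of these data known. Of 519 tested list members, 135 had an unadjusted p under 0.05 (83 with the late-library term). Cd8a (0.13 on the log2 scale) ranged from -0.21 to 0.96 over tumors left out, with -0.07 and -0.017 without control tumors 1 and 2, and -0.17, -0.21 and -0.05 without blockade tumors 1, 2 and 4. The cause was not tested, and its reads were few.

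Replicate numbers are shared by the groups, but same-numbered tumors did not deviate together (r of 0.025, 0.015, 0.020 and -0.17 across genes), so they share only a number. With the number as a replicate block 0 genes were called, and 3561 in place of 3570 had an unadjusted p under 0.05.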

Other observations

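A set of genes was read in the late libraries alone. With 0 reads in the other 18 libraries of the series and at least 5 in each of the 5 late libraries there were 169 genes, of which 155 were processed pseudogenes. In the reverse direction there were 6. The reads on the 169 genes numbered 22626 in control tumor 4 and 24025, 22816, 23053 and 20527 in blockade tumors 1 to 4. Across these 5 libraries the coefficient of variation (CV) of that sum was 5.67%, against 12.9% for the total reads. Hs3st2, a heparan sulfate sulfotransferase gene chosen after its values were seen, had 0 reads in control tumors 1 to 3, 1102 in control tumor 4 and 1077, 1161, 1129 and 1044 in blockade tumors 1 to 4. The CV of Hs3st2 was 4.11% for reads and 24.997% for normalised values. Raw reads varied less than normalised values across the late libraries in 137 of the 169 genes (81.1%), in 1032 of the 1565 genes that rose without control tumor 4 (65.9%), in 73 of the 797 that fell (9.16%) and in 3610 of all 16481 genes (21.9%).

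According to the study only female mice were used. The Y-linked gene Kdm5d had 18, 20, 48 and 2 reads in control tumors 1 to 4 and 0, 0, 2 and 0 in blockade tumors 1 to 4. The Y-linked gene Ddx3y had 161, 120, 246 and 156 reads in control tumors 1 to 4 and 138, 137, 88 and 126 in blockade tumors 1 to 4. Xist, the RNA of the inactive X chromosome, had 23092, 20309, 20776 and 9361 reads in control tumors 1 to 4 and 12442, 14335, 7671 and 11859 in blockade tumors 1 to 4. These genes were chosen after their values were seen.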
